A study of Mus musculus with 3 samples.

Results

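The genes described here are the olfactory receptor (Olfr), vomeronasal receptor (Vmn1r and Vmn2r) and trace amine-associated receptor (Taar) genes whose transcripts were found in nuclei of the mouse olfactory bulb. The members were chosen by their measured abundance: a symbol of these families was kept when it had at least 30 raw unique molecular identifiers (UMIs, a count of captured RNA molecules) summed over all nuclei of the authors' nucleus table. Of 31055 counted genes 1481 carry such a symbol, 917 of these had at least 1 UMI, and 200 passed, made up of 119 Olfr, 24 Vmn1r and 57 Vmn2r genes. The 15 Taar symbols had 0 UMIs, which allows a summed level of up to 0.00895 CPM (UMIs per 1000000 UMIs of a library) for each, counting error only. Olfr905, Vmn1r201 and Vmn2r107 lay just inside the limit with 30 UMIs, and 8 symbols with 29 UMIs lay just outside it, among them Olfr1209, Olfr31 and Vmn2r22. Because the same counts chose the members, their levels by cluster are given as a description without a test.

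The nuclei came from the bulbs of 3 adult C57Bl/6 male mice, all injected in the piriform cortex (PCx) and the anterior olfactory nucleus (AON) with retroAAV-CAG-H2B-GFP, a retrogradely transported virus that places GFP in the nuclei of neurons projecting there, mitral and tufted cells in the first place. GFP-positive nuclei were sorted and profiled with 10x Chromium Single Cell 3′ v3 chemistry, 1 library per mouse, so that the 3 mice are replicates of a single group and no treatment was compared. The CAG promoter is active in many cell types, and the sort also passed nuclei of periglomerular and granule neurons and of glia. The authors' table lists 31703 nuclei with 335347971 UMIs, which are 5845, 21105 and 4753 nuclei of mice 1, 2 and 3 with medians of 7940, 8420 and 10568 UMIs. It divides them into clusters and, for nuclei that the authors took as excitatory, into subclusters. Names such as T1-like (tufted), M1-like (mitral) or ET1-like (external tufted) below rest on a marker list, and subclusters 2, 8 and 9 and cluster 21 stay unnamed. The leading genes of subcluster 2 include Adamts19 and Syt10, which also lead in the inhibitory clusters 0 and 3. Those of subcluster 9 include Trh and Hgf, which also lead in the inhibitory cluster 6. The mice share few cell barcodes (8 to 39 per pair). The M1-like subcluster holds only 14 nuclei of mouse 1 among its 686, and its levels in that mouse are the least precise.

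Olfactory receptors are the odour-binding G protein-coupled receptors of the nasal epithelium, where each mature sensory neuron is known to express a single receptor gene out of a very large family. The signal runs through the G protein Gnal (Golf), the adenylate cyclase Adcy3 and a cyclic nucleotide-gated channel. Vmn1r and Vmn2r genes encode the receptors of the vomeronasal organ, which signal through the channel Trpc2 and detect pheromones and other social cues. Mitral and tufted cells are the output neurons of the bulb, which receive the axons of these sensory neurons and are not themselves known as odour-sensing cells. The axons of sensory neurons end in the bulb, but their nuclei lie in the nose.

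Receptor transcripts were rare and unevenly divided. The 1481 symbols together had 256569 UMIs, 0.0765% of all UMIs, of which Olfr genes gave 68.3%, Vmn1r genes 23.6% and Vmn2r genes 8.08%. Among the members 117 had 30 to 99 UMIs, 66 had at least 100 but fewer than 1000, and 17 had 1000 or more, with a median of 74.5. A run of 6 neighbouring genes on chromosome 17, Olfr110 to Olfr115, gave 146412 UMIs (57.1% of all receptor UMIs), and 4 genes of a region on chromosome 13, Vmn1r200, Vmn1r206, Vmn1r208 and Vmn1r209, gave 58496 (22.8%). The other 190 members gave 18.3%. The highest totals were those of Olfr111 (83786 UMIs), Vmn1r209 (43232), Olfr115 (24486), Olfr112 (22392) and Vmn1r206 (11713). These totals are not corrected for gene length, so they order the genes by captured molecules only.

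The chromosome 17 run spans chr17:37492468-37627109 (GRCm38, GENCODE vM21), with Olfr110 and Olfr111 on the plus strand and Olfr112 to Olfr115 on the minus strand. All 6 are annotated as protein coding, and each has its coding sequence within 1 exon. The genes fall into a pair and a foursome by sequence: the coding sequences of Olfr110 and Olfr111 agree at 98.1% of aligned bases (933 of 951), those of Olfr112 to Olfr115 do so among themselves at 88.6% to 91.2%, and identity between these sets is 63.5% to 65.7%. The first 60 coding bases from the start codon show this, and capitals mark the positions at which the aligned genes of a set differ (4 positions in the foursome and none in the pair). The bases lie at chr17:37498653-37498712 and chr17:37529979-37530038 for the pair and, in the order printed, at chr17:37564250-37564309, chr17:37575362-37575421, chr17:37590292-37590351 and chr17:37610696-37610755 for the foursome.
Olfr110: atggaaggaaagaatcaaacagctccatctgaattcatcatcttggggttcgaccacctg
Olfr111: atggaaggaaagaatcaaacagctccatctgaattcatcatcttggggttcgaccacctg
Olfr112: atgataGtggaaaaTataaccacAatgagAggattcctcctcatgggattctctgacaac
Olfr113: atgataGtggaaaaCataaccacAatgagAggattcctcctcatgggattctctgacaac
Olfr114: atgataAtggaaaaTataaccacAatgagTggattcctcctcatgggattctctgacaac
Olfr115: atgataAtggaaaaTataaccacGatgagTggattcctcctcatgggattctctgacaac

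These likenesses bear on the counts. Of the distinct 31-base words in the exons of Olfr111 24.4% also occur in another gene, all of them in Olfr110, and of those in Olfr110 37.0% occur in Olfr111. The division of reads within the run is therefore uncertain, above all between these neighbours. The shares in Vmn1r209 (39.9%) and Vmn2r87 (56.1%) are higher, the median over the members is 15.7%, and 80 members exceed 20%. Olfr115 also overlaps the annotated gene Olfr116 on its strand.

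The 4 genes of the chromosome 13 region lie within chr13:22390373-22809682, Vmn1r200 on the plus strand and Vmn1r206, Vmn1r208 and Vmn1r209 on the minus strand. The members Vmn1r201 (30 UMIs), Vmn1r202 (35) and Vmn1r203 (44) also lie within this span but were scarce, and they are counted among the other 190 members. Vmn1r200, Vmn1r206, Vmn1r208 and Vmn1r209 are annotated as protein coding, and the coding sequences of these 4 genes agree at 85.2% to 95.9% of aligned bases, the highest value being that of Vmn1r206 and Vmn1r209. The first 60 coding bases of the 3 genes whose starts align without a gap are shown to set the scarce Vmn1r200 beside the abundant Vmn1r206 and Vmn1r209, with capitals at the 10 positions that differ. They lie at chr13:22395029-22395088 (plus), chr13:22620976-22621035 (minus) and chr13:22806459-22806518 (minus).
Vmn1r200: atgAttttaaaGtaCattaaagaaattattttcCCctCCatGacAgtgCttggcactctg
Vmn1r206: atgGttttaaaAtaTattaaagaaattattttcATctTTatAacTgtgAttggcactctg
Vmn1r209: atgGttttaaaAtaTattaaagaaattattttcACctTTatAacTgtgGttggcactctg

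For each mouse the UMIs of the nuclei of a cluster or subcluster were summed into a library and expressed as CPM. The summed level of the 200 members was highest in the T1-like subcluster 0 (3449 ± 74 CPM, SD, n = 3), followed by the ET1-like subcluster 4 (1779 ± 185), the unnamed subcluster 2 (1638 ± 169), the M2-like subcluster 1 (1082 ± 57) and the M3-like subcluster 7 (1076 ± 137). This order is over the subclusters with 3 libraries. Subcluster 9 had 1087 CPM in its only library of at least 10 nuclei, and the microglia-like cluster 20 had 858 ± 508 CPM. The sum was lower in the ET2-like subcluster 6 (773 ± 56), in subcluster 8 (665 ± 136), in the M1-like subcluster 5 (318 ± 73) and in the ET4-like subcluster 3 (192 ± 42). The means of the inhibitory neuron-like clusters were 132 to 178 CPM. The M2-like and M3-like libraries overlapped, as did those of subclusters 4 and 2, so these neighbours in the order did not differ beyond their spread.

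The 2 gene blocks and the remaining members divided this sum in different ways. The Olfr110 to Olfr115 block reached 2552, 2592 and 2651 CPM in the T1-like libraries of mice 1 to 3, against 1579 ± 182 in ET1-like, 358 ± 72 in M2-like and 22.3 in M1-like nuclei (means, n = 3). The chromosome 13 block was spread over more subclusters, with 819 ± 170 CPM in M3-like, 715 ± 67 in T1-like, 614 ± 54 in ET2-like and 579 ± 13 in M2-like nuclei, but 71.9 in ET1-like and 13.9 in ET4-like nuclei. The other 190 members summed to 127 to 178 CPM in the subclusters and to 113 to 167 CPM in the inhibitory clusters, which overlap. Their highest mean sum was found outside the neurons, in the ensheathing glia-like cluster 11 with 230.4, 221 and 302 CPM. These libraries overlapped with those of the vascular-like cluster 18 (328, 128 and 196 CPM) and of the microglia-like cluster 20 (292, 110 and 269 CPM).

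**Figure D1:**
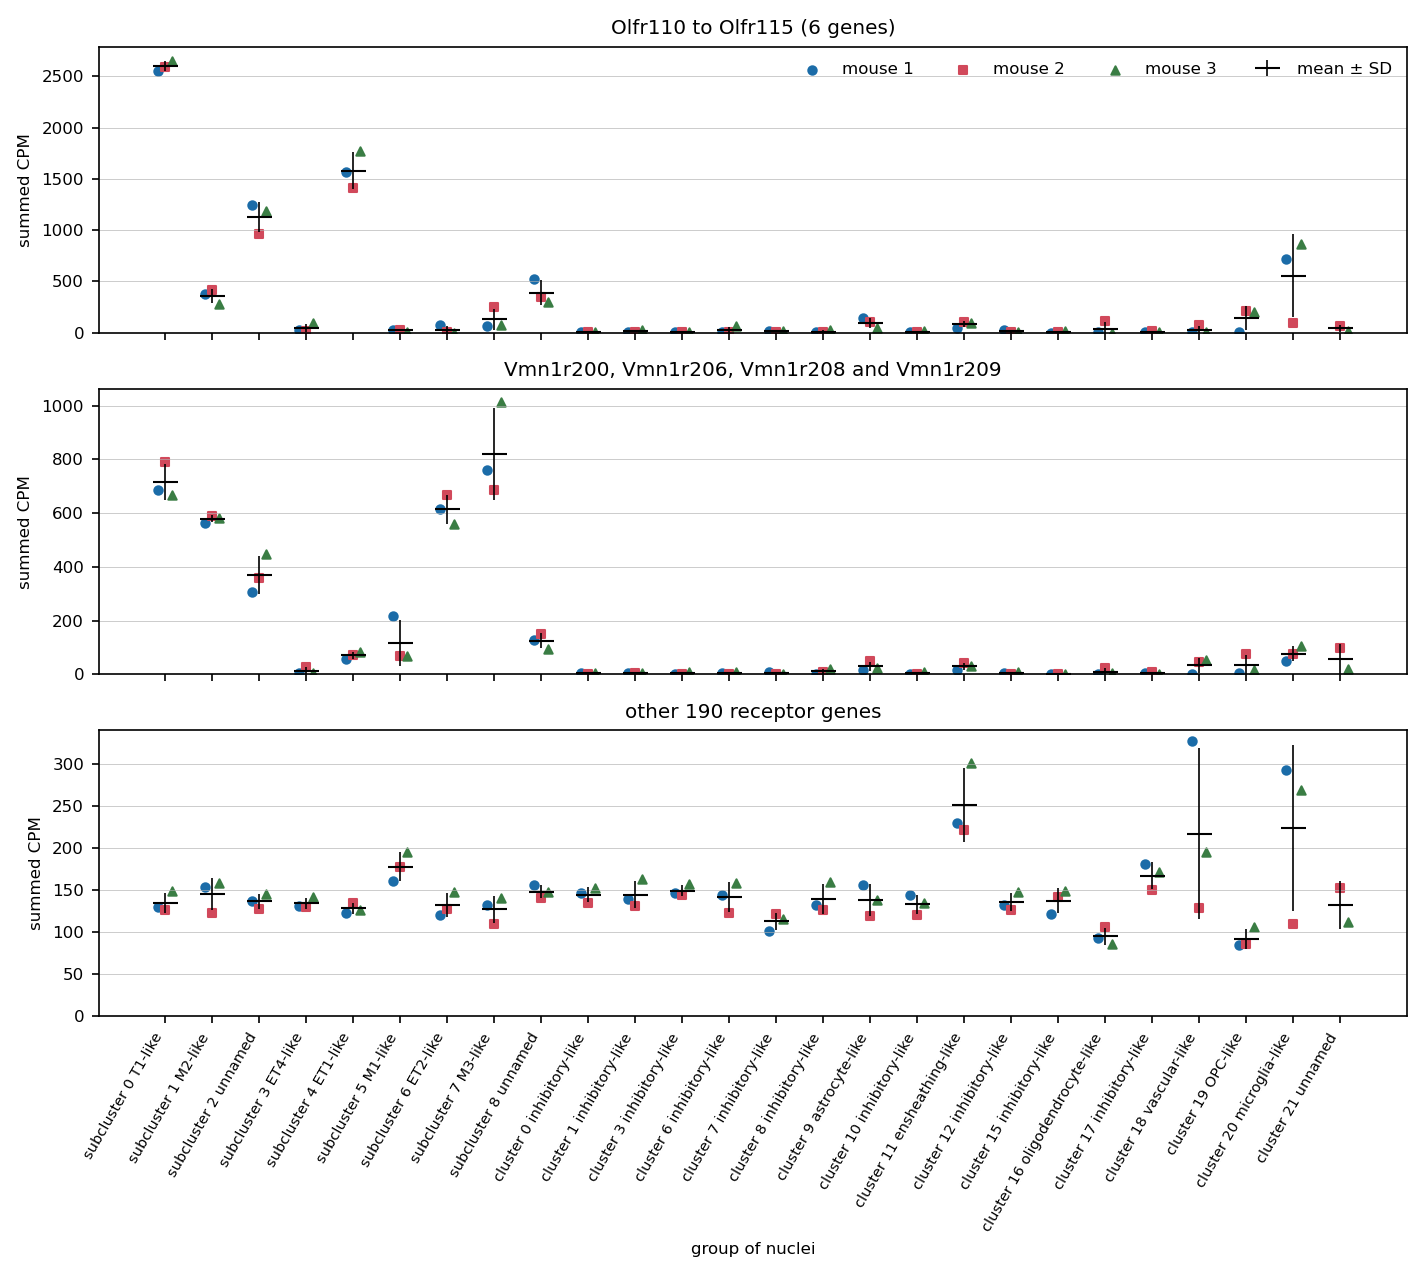
Summed level in CPM of the Olfr110 to Olfr115 block, of the 4 genes of the chromosome 13 block and of the other 190 members, by subcluster and cluster (axis labels). Each point is 1 mouse with at least 10 nuclei in the group, and the marks with bars are the mean ± SD over mice; the Olfr block stands highest in the T1-like subcluster 0 (2598 ± 50 CPM) and the Vmn1r block in the M3-like subcluster 7 (819 ± 170 CPM).

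Olfr111 (ENSMUSG00000090675, chr17:37508030-37532449) was the most abundant receptor gene. Its level was 1469, 1506 and 1457 CPM in the T1-like libraries of mice 1 to 3, 919, 819 and 963 CPM in the ET1-like libraries, and 701, 557 and 665 CPM in subcluster 2. These 3 groups did not overlap with each other. Among subclusters with 3 libraries, subcluster 8 (262, 202 and 182 CPM) and the M2-like subcluster (218, 246 and 154 CPM) came next and overlapped. Subcluster 9 had 423 CPM in its only library of at least 10 nuclei, and the microglia-like cluster 20 had 455, 58.6 and 384 CPM with a wide spread. The ET2-like libraries held 45.1, 5.68 and 0.71 CPM, the M1-like libraries 6.19, 18.3 and 9.96, and the ET4-like libraries 14, 9.41 and 53.1, which overlapped with each other. Mean levels in the inhibitory clusters were 3.55 to 15.8 CPM, the background against which the low groups stand.

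By nuclei, Olfr111 had at least 1 UMI in 96.5% of 2128 T1-like nuclei (95% Clopper-Pearson interval 95.6% to 97.2%), with a median of 23 and a maximum of 106 UMIs. The inhibitory cluster 0, a type expected to lack the gene, gave 1.69%. Median depths were 15749.5 and 7563 UMIs, and after thinning every nucleus to 3000 UMIs the shares for Olfr111 were 91.1% and 0.80%. The thinned shares for Olfr111 were 66.7% in ET1-like, 51.5% in subcluster 2, 28.1% in subcluster 8, 18.6% in the M2-like and 9.89% in the M3-like subcluster, all above that background. Without thinning they were 78.2%, 64.2%, 49.2%, 29.2% and 16.3%. Intervals cover counting error only.

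The other genes of the run also had a higher mean in the T1-like than in the ET1-like libraries. Olfr115 reached 432, 409 and 506 CPM in the T1-like libraries against 246 ± 56.6 in the ET1-like ones, and Olfr112 reached 363, 402 and 417 CPM against 234 ± 31.5. Olfr113 (74.6, 72.5 and 67.4 CPM against 40.7 ± 8.67) and Olfr114 (85.1, 62.7 and 84.6 CPM against 47.6 ± 8.19) were lower in both. Olfr110 differed from these in that its T1-like (128, 140.0 and 119 CPM) and ET1-like (108, 103 and 121 CPM) libraries overlapped. In the subclusters with most block UMIs the share of Olfr111 was much alike: it gave 57.0% of them in T1-like, 57.7% in M2-like, 57.4% in subcluster 2 and 57.5% in ET1-like nuclei. The share of Olfr110 was not, with 5.04% in T1-like, 3.6% in M2-like, 5.06% in subcluster 2 and 7.10% in ET1-like nuclei. Where the block had few UMIs the share of Olfr111 varied more, from 42.4% in the inhibitory cluster 8 (53 Olfr111 UMIs) and 46.8% in the OPC-like cluster 19 (96 UMIs) to 64.8% in M1-like nuclei (204 UMIs) and 81.8% in cluster 15 (9 UMIs). It was 56.4% in the astrocyte-like cluster 9 and 51.1% in the microglia-like cluster 20, where 138 Olfr111 UMIs were found in 146 nuclei. The part of free RNA in these low levels was not tested.

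Single nuclei held several receptor transcripts at once. In the T1-like subcluster the median nucleus had UMIs of 5 of the 6 Olfr genes of chromosome 17, 95.7% had at least 2 of them, 595 nuclei had all 6 and 51 had none. The median was 4 genes in ET1-like nuclei, where 75.2% had at least 2, and 3 genes in subcluster 2, where 60.9% had at least 2. Of 1149 M2-like nuclei 749 had none. Counting all members, the median nucleus had a UMI of 8 receptor genes in T1-like, 7 in subcluster 2, 5 in M2-like and ET1-like and 1 in ET4-like nuclei, with a maximum of 18 in T1-like nuclei and 19 in subcluster 2. Nuclei of 1 mouse share a library and differ in depth, so these counts describe the nuclei and are not replicates. Reads that fit 2 near-identical genes can also place a molecule in the wrong gene. Doublets were not called, and their part in these counts was not tested. Median depth was 20122 UMIs in subcluster 2, 15749.5 in T1-like and 20781 in M2-like nuclei. Mouse 2 gave 772 of the 943 nuclei of subcluster 2, and 72.6% of that subcluster fell in the GABAergic gate described below.

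**Figure D2:**
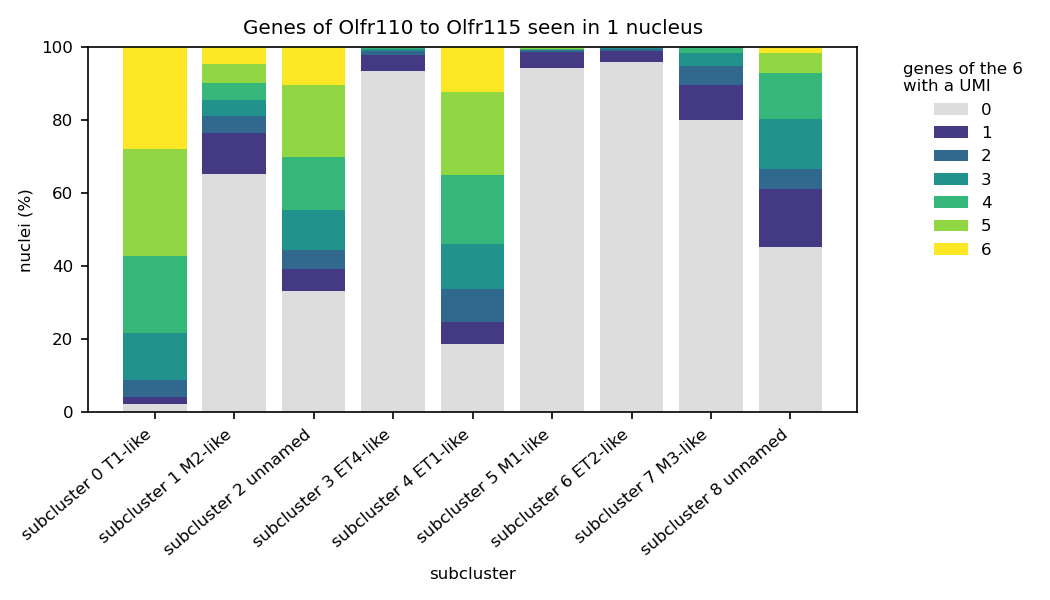
Percentage of nuclei in subclusters 0 to 8 by the number of the 6 chromosome 17 Olfr genes with at least 1 UMI in the nucleus. Most T1-like nuclei (subcluster 0) hold several of these genes, with a median of 5 and 595 of 2128 nuclei holding all 6, while most M2-like nuclei (subcluster 1) hold none.

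Vmn1r209 (ENSMUSG00000071491, chr13:22800629-22809682) had a broader pattern than Olfr111. Its level was 552, 503 and 822 CPM in the M3-like libraries, 495, 568 and 481 CPM in the T1-like libraries, and 476, 494 and 427 CPM in the ET2-like libraries. The M2-like libraries followed with 451, 465 and 462 CPM. These 4 subclusters overlapped as neighbours in the order. Subcluster 2 held less (215, 270.1 and 329 CPM). In the M1-like libraries Vmn1r209 stood at 173, 42.6 and 47.4 CPM, and the high value is that of the 14 nuclei of mouse 1. The ET1-like libraries had 30.1, 46.9 and 44.7 CPM and the ET4-like libraries 6.78, 23.8 and 6.29 CPM, beside means of 0.345 to 6.97 CPM in the inhibitory clusters. Thinned to 3000 UMIs, 58.9% of T1-like, 58.2% of M2-like, 54.6% of M3-like, 41.5% of ET2-like and 10.2% of M1-like nuclei had a Vmn1r209 UMI, against 0.34% in the inhibitory cluster 0. Without thinning the shares were 81.1%, 84.6%, 58.6%, 57.3% and 28.9%, against 0.716%.

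Vmn1r206 and Vmn1r208, neighbours of Vmn1r209, were high in the same 4 subclusters. Vmn1r206 averaged 155 ± 14.6 CPM in T1-like, 134 ± 5.93 in M3-like, 125 ± 17.6 in ET2-like and 88.3 ± 2.31 in M2-like libraries, and Vmn1r208 averaged 39.0 ± 5.84, 32.4 ± 2.64, 23.8 ± 3.81 and 30.8 ± 4.00 CPM in the same order. Vmn1r200, at the other end of the region, was scarce. Its highest mean was in the M3-like libraries (49.0, 15 and 19.3 CPM), and its T1-like libraries held 6.19, 8.14 and 5.19 CPM.

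The gene blocks met in some subclusters and parted in others. Requiring at least 2 UMIs of each gene, 95.1% of T1-like nuclei had Olfr111, 75.1% had Vmn1r209 and 71.5% had both. The ET1-like nuclei had Olfr111 in 73.4% and Vmn1r209 in 8.39%, while the ET2-like nuclei had Olfr111 in 0.849% and Vmn1r209 in 48.6%. In the T1-like subcluster 489 of 522, 1011 of 1059 and 523 of 547 nuclei of the mice had Olfr111, so few lacked it. Within the T1-like subcluster Vmn1r209 was found in 70.1%, 78.6% and 73.2% of nuclei with Olfr111 and in 60.6%, 87.5% and 62.5% of those without it in mice 1 to 3, so that the mice differed in direction. The same holds for the M2-like subcluster, with 69.5%, 82.2% and 78.8% beside 78.5%, 76.4% and 81.5%. In the unnamed subcluster 2 only mouse 2, which gave 772 of its 943 nuclei, showed a wide gap (61.1% with and 27.0% without Olfr111), while mouse 1 had 57.6% and 53.6% and mouse 3 had 60.4% and 62.5%. In the ET1-like subcluster, where Vmn1r209 was rare, the share was higher with Olfr111 in all 3 mice (7.21%, 10.1% and 16.5% beside 2.78%, 1.49% and 5.88%). ET1-like nuclei with Vmn1r209 numbered 9, 33 and 17 in these mice, and 8, 31 and 16 of them also had Olfr111. The ET1-like shares without Olfr111 therefore rest on very few positive nuclei. None of the shares in this paragraph was corrected for the depth of the nuclei.

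Olfr1259 (ENSMUSG00000068806, chr2:89940532-89948664, minus strand) was found almost wholly in the M1-like subcluster. Its level there was 18.6, 23.8 and 19.5 CPM, and the highest library of any other group had 2.99 CPM. Of its 334 UMIs 89.8% came from this subcluster. A UMI was present in 24.3% of M1-like nuclei (interval 21.2% to 27.7%; 5.85% after thinning) and in 0 of 2128 T1-like nuclei, which allows up to 0.141% of nuclei with a UMI, counting error only, and does not limit how many express the gene. Its neighbour Olfr1258, with a coding sequence that agrees at 71.7% of aligned bases, stood at 0, 13.2 and 17.5 CPM in the M1-like libraries. The opening of the Olfr1259 coding sequence (chr2:89944054-89944113, capitals at the start codon) is shown because the gene had nearly all its UMIs in the M1-like nuclei, although Vmn1r209 was the more abundant receptor transcript there (622 UMIs, in 28.9% of the nuclei).
Olfr1259: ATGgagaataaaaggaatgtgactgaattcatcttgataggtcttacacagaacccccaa

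Another 4 neighbouring genes, elsewhere on chromosome 2 within chr2:90136273-90271032, were found in the ensheathing glia-like cluster 11. Ensheathing glia wrap the axons of sensory neurons as they enter the bulb. Olfr142 had 31.4, 48.3 and 67.8 CPM in this cluster and at most 2.24 CPM in a library of any other group, with 96.4% of its 329 UMIs in the cluster. Olfr1271 had 35.9, 43.8 and 59.8 CPM with 97.0% of 300 UMIs, Olfr32 had 26.9, 14.8 and 27.9 CPM with 84.4% of 135 UMIs, and Olfr1270 had 15, 9.07 and 3.99 CPM with 89.4% of 66 UMIs. At least 1 UMI was present in 20.4% of the 972 nuclei for Olfr142 and in 18.1% for Olfr1271. The coding sequences of Olfr142 and Olfr1271 agree at 94.0% of aligned bases, so reads may be divided between them, and their first 60 bases (chr2:90252927-90252986 and chr2:90266369-90266428, minus strand) differ at the 6 positions in capitals.
Olfr142: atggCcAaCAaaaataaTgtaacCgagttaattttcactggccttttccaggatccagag
Olfr1271: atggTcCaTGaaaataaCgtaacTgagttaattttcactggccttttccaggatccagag

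Members of the glial and immune clusters, like those of chromosome 2 above and Olfr1258, are named here although they lie outside the rule for named genes, and were chosen after their values were seen. Olfr1511 stood at 24.2, 7.63 and 23.4 CPM in the astrocyte-like cluster 9, which held 81.9% of its 116 UMIs. Olfr1033 was highest in the vascular-like cluster 18 (220.3, 33.1 and 86.0 CPM), where mouse 1 stands apart from the others. Olfr56 reached 65.0, 19.5 and 59.8 CPM in the microglia-like cluster 20, but it overlaps Ifi47, an interferon-inducible gene, on the same strand. Of its 4571 exonic 31-base words 83 occur in Ifi47, and how reads were divided between these genes was not tested.

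**Figure D3:**
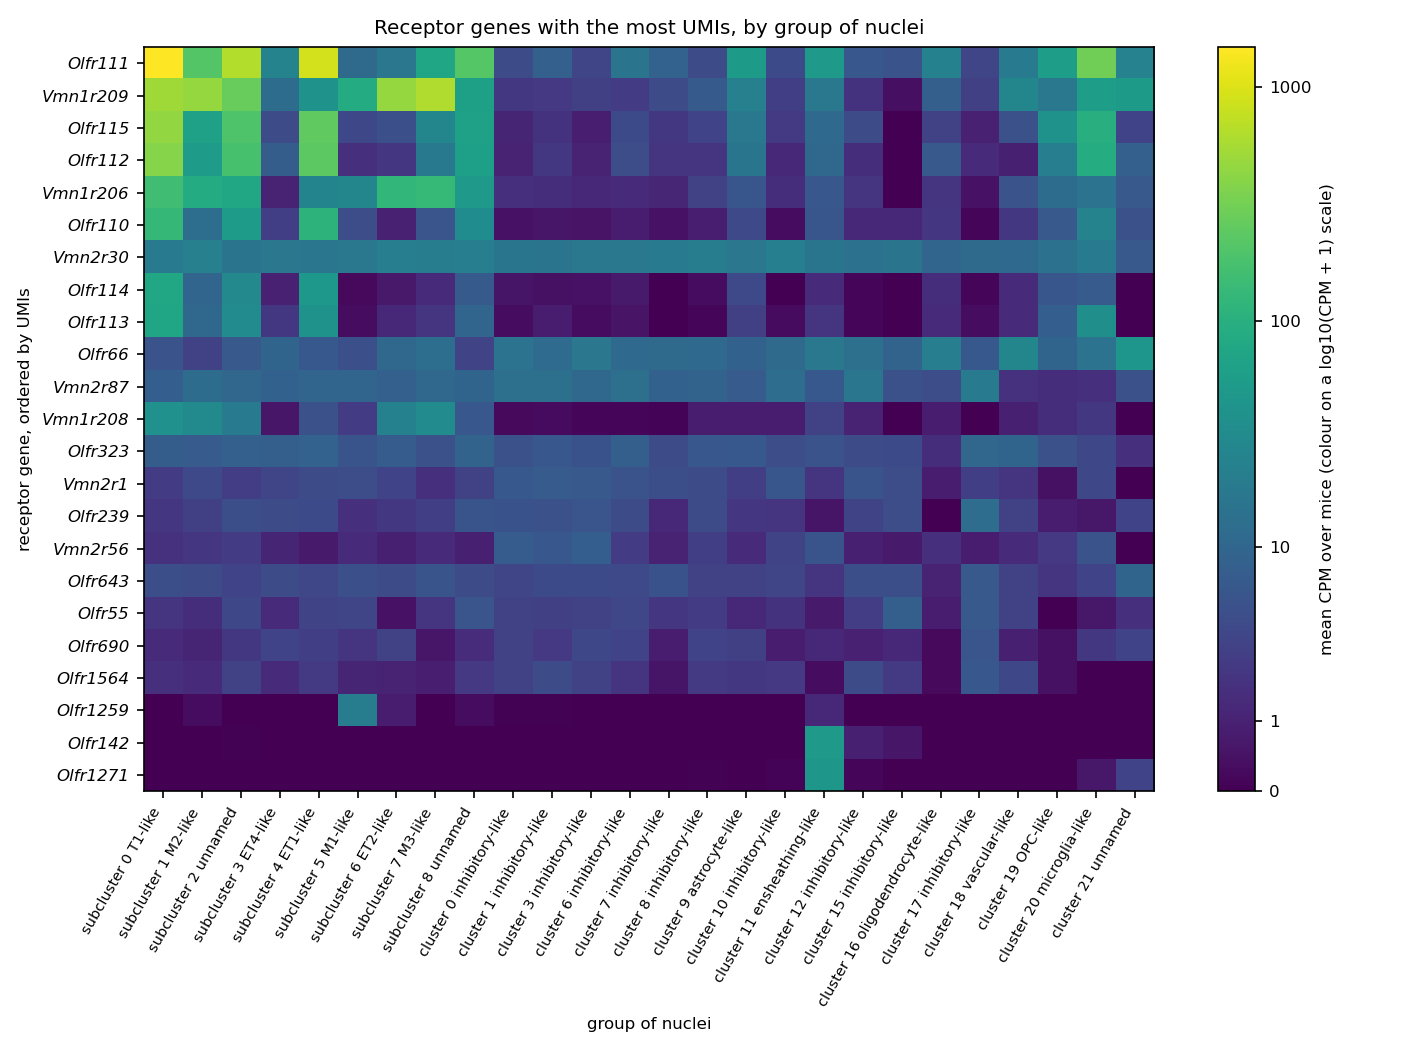
Mean CPM over mice, as log10(CPM + 1), of the 20 members with most UMIs and of Olfr1259, Olfr142 and Olfr1271 (vertical axis) in each subcluster and cluster (horizontal axis). The chromosome 17 Olfr genes share their highest values in T1-like, ET1-like and subcluster 2 nuclei, Olfr1259 in the M1-like and Olfr142 and Olfr1271 in the ensheathing glia-like nuclei (49.2 and 46.5 CPM).

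Most members did not follow the blocks. The subclusters hold 23.7% of the nuclei and 38.4% of all UMIs, and the median member had 44.4% of its UMIs there. Only 18 members had more than 90% and 126 had less than 50%. Vmn2r30, the most abundant Vmn2r gene, had its highest mean in M2-like nuclei (23.3 ± 4.77 CPM) and its lowest in cluster 21 (6.78 CPM, on 4 UMIs), and of its 31-base words 48.9% occur in other genes. Olfr66 ranged from 3.24 CPM in M2-like nuclei to 45.0 in cluster 21, where 13 UMIs were found. Among groups with 3 libraries Vmn2r87 ranged from 1.63 to 19.7 CPM and Olfr323 from 1.60 to 10.1, both highest in the inhibitory cluster 17. Vmn2r56 was highest in inhibitory clusters (7.74 ± 1.23 CPM in cluster 3), as was Vmn2r1 (7.15 ± 0.30 in cluster 1). Olfr239 (12.5 ± 7.94 CPM), Olfr643 (6.70 ± 3.84), Olfr690 (5.83 ± 2.30) and Olfr1564 (6.34 ± 3.62) were, among groups with 3 libraries, highest in cluster 17 as well, and Olfr55 in cluster 15 (8.03 ± 10.1). The spread between mice was wide in these small groups, and none of the listed genes stood above all other libraries there.

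Markers of olfactory sensory neurons were measured beside the receptors, since receptor transcripts could come with their axons or nuclei. Of 12 listed genes Omp, the defining marker of mature sensory neurons, had 0 UMIs, and 7 had under 100 UMIs, including Rtp1 (3) and Rtp2 (6), which carry receptors to the membrane, and the channel subunits Cnga2 (44) and Cnga4 (52). Without the widely expressed adhesion gene Ncam2 the list summed to 13.4 CPM in T1-like nuclei, 8.66 to 17.2 CPM over the subclusters and 13.3 to 39.5 CPM over the other clusters. With Ncam2 it summed to 71.5 CPM in T1-like nuclei, the lowest of the subclusters, and up to 686 CPM in another subcluster. Cnga2, Rtp2 and S100a5 peaked in the ensheathing glia-like cluster 11 (means of 1.96, 1.77 and 24.4 CPM), which also held Olfr142 and Olfr1271. Cnga2 and Rtp2 rest there on few UMIs. Cnga4, Gng13, Stoml3, Rtp1, Ano2, Gng8, Gfy and Ncam2 peaked in other groups. Whether receptor transcripts of cluster 11 came with sensory axons was not tested. The vomeronasal channel gene Trpc2 had 0 UMIs. In the gates described next, Gfy of this list was higher in glutamatergic nuclei (0.605 against 0.0841 CPM) and Ncam2 lower (log2 fold change -1.63), and the part of these genes in the receptor levels was not tested.

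To test the members on groups that were not made from them, nuclei were gated by other genes and the UMIs of each gate were summed per mouse. The glutamatergic gate required at least 2 UMIs of Slc17a7, Slc17a6 and Tbx21 together and more than of Gad1, Gad2 and Slc32a1. It held 5643 nuclei, and the GABAergic gate, its counterpart, 23040. A gene was called when edgeR's quasi-likelihood test gave a Benjamini-Hochberg adjusted p under 0.05 over all 18389 genes tested and an absolute log2 fold change over 1. Of the 200 members 83 passed the filter on low counts and were tested, and 22 of these were higher and 6 lower in the glutamatergic gate. Over all genes 13.5% were called higher and 13.1% lower. Since a member could pass the filter through the gate in which it is high, these counts are no evidence on the members as a set.

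Olfr111 had 721, 682 and 614 CPM in the glutamatergic libraries and 54.4, 62.9 and 42.9 CPM in the GABAergic ones. The libraries were far apart in all mice (log2 fold change 3.76, SE 0.15, edgeR adjusted p = 7.47e-07). Vmn1r209 had 378, 344 and 322 CPM against 18, 35.4 and 25.6 CPM (3.82, SE 0.24, edgeR adjusted p = 6.48e-06). The other members of the blocks rose in the same range, from 3.71 for Olfr113 to 3.88 for Olfr114, leaving out Vmn1r200, whose GABAergic libraries (0.346, 0.440 and 0.139 CPM against 3.87, 3.14 and 3.31) would not have passed the filter by themselves. The GABAergic levels of Olfr111 were above those of the inhibitory clusters. Of the GABAergic nuclei 6.05% (1395) lay in the subclusters, among them 72.6% of subcluster 2 and 74.2% of subcluster 9. The part of these nuclei in the GABAergic level was not tested, and within a mixed gate a change in its make-up and in RNA per nucleus cannot be told apart.

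Members outside the blocks were called at far lower levels. Higher in the glutamatergic gate were Vmn2r61 (log2 fold change 2.40; 1.96 against 0.395 CPM), Olfr678 (1.97; 2.04 against 0.571 CPM), Olfr814 (1.30; 3.18 against 1.43 CPM) and Vmn2r59 (1.10). Near the limit stood Olfr1385 at 1.02, whose libraries overlapped between the gates and which fell under the limit with mouse as a block (0.97), without TMM scaling (0.91), with DESeq2 (0.97) and without mouse 2 or 3 (0.92 and 0.95). Without mouse 1 its fold stayed above the limit (1.13), but the call was lost as well (edgeR adjusted p = 0.117). Lower in the glutamatergic gate were Vmn2r56 (-1.41; 1.83 ± 0.21 against 5.26 ± 0.87 CPM), Olfr275 (-1.41) and Olfr66 (-1.14). The Olfr66 libraries of the gates overlapped (5.40 ± 1.60 against 12.9 ± 5.21 CPM), and its call was lost without mouse 1 (-0.94, edgeR adjusted p = 0.15). The other 10 called members outside the blocks passed the filter on low counts only through the gate in which they are high, and are given as a description. Olfr987 had 0.533, 0.654 and 0.853 CPM in the glutamatergic and 0.0629, 0.0894 and 0.0693 CPM in the GABAergic gate. Olfr1307 (0.685 against 0.112 CPM), Olfr539 (0.439 against 0.0738), Olfr731, Vmn2r36, Vmn2r101 and Vmn2r79 likewise had the higher mean in the glutamatergic gate, and Vmn2r15 (0.132 against 0.433 CPM), Olfr545 and Olfr267 in the GABAergic one. The calls of Vmn2r59, Olfr731, Vmn2r36, Vmn2r101, Vmn2r79, Vmn2r15, Olfr545 and Olfr267 were lost when some single mouse was left out.

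**Figure D4:**
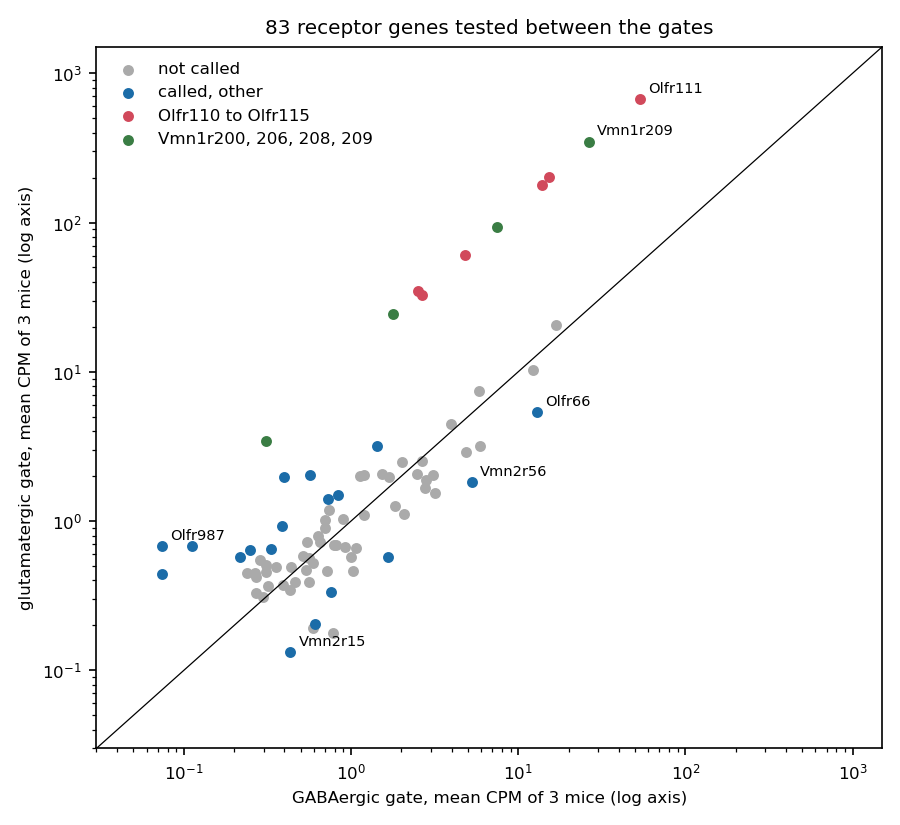
Mean CPM over 3 mice of the 83 tested members in the glutamatergic gate (vertical axis) and the GABAergic gate (horizontal axis), both on log scales, with the diagonal at equal levels. The 10 genes of the blocks lie well above the diagonal, and most other members lie near it at low levels.

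A finer set of gates took glutamatergic nuclei with markers of a single projection neuron type, such as Kcng1, Lhx5 and Sertm1 for M1 or Piezo2, Vgll2 and Zfp114 for M2. Each gate was compared with the mean of the log levels of the other 6 gates, over 13158 genes, of which 18 were members. The M1 and ET2 gates, where the chromosome 17 genes were near 0, pull this mean down, so that log2 fold changes of these genes lie above those of the linear means. The gates corresponded in part to the subclusters: 91.5% of the T1 gate nuclei lay in the T1-like subcluster, 87.9% of M1 in the M1-like and 99.5% of ET2 in the ET2-like. Of the 334 nuclei of the M2 gate 82.0% lay in the M2-like and 12.3% (41) in the T1-like subcluster. The ET1 gate drew 42.0% from the ET1-like and 33.1% from the T1-like subcluster, and the M3 gate 27.9% from the M2-like, 24.3% from the M1-like, 21.5% from the M3-like subcluster and 12.1% from the inhibitory cluster 8. The ET4 gate drew 67.5% from the ET4-like, 7.26% from the T1-like and 5.05% from the ET1-like subcluster, and 6.31% from the ensheathing glia-like cluster 11. The M1 gate of mouse 1 holds 12 nuclei.

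In the T1 gate 9 of the 18 tested members were higher and 0 lower, with 4.45% and 4.01% of all genes called in these directions and 11 members at an unadjusted p under 0.05. Olfr111 had 1506, 1616 and 1447 CPM in the T1 gate of mice 1 to 3, above the libraries of every other gate, whose mean was 267 CPM (log2 fold change 4.36, SE 0.18, edgeR adjusted p = 5.02e-15). Olfr115 (4.27), Olfr112 (4.28), Olfr110 (4.11) and Olfr113 (3.97) rose to a like extent, and Olfr114 was called too. For all 6 the T1 libraries lay above all libraries of the other gates. Vmn1r208 (1.35) and Vmn1r206 (1.22) rose less, and Vmn1r209 (0.91, edgeR adjusted p = 0.0475) stayed under the fold limit. Vmn1r200, at 7.73, 6.75 and 6.43 CPM in T1, was the remaining member called. Its call may rest on passing the filter on low counts through T1 and is given as a description.

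In the ET1 gate 6 members were higher and 0 lower (3.29% and 0.646% of all genes), and these were the 6 genes of the chromosome 17 run. Olfr111 had 996, 972 and 989.9 CPM (3.59, SE 0.18, edgeR adjusted p = 5.19e-13), a narrow spread below that of the T1 gate. The linear means were 986 CPM in ET1 and 356 CPM over the other gates. Olfr110 (3.66), Olfr112 (3.57), Olfr115 (3.39) and Olfr113 (3.01) were alike. Vmn1r209, at 186, 238 and 241 CPM, was not called (-0.42, edgeR adjusted p = 0.63). Its level is well above that of the ET1-like subcluster, and the part of the T1-like nuclei (33.1%) in the gate was not tested.

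In the M2 gate 8 members were higher and 0 lower (4.04% and 2.94% of all genes). Of these, 6 were the chromosome 17 genes, and for all 6 the linear mean in M2 lay below that of the other gates, so that their calls hold against the mean of logs only. Olfr111 had 321, 263 and 241 CPM, with means of 275 and 475 CPM (log2 fold change 1.53, SE 0.21), Olfr112 had means of 73.5 and 128 CPM, and Olfr110 had 20.4 and 44.5 CPM. The part of the T1-like nuclei of the M2 gate in these levels was not tested. Vmn1r209 had 547, 564 and 487 CPM (1.14, edgeR adjusted p = 0.0119), and this call was lost without mouse 2 (1.05, adjusted p = 0.14) and with DESeq2 (adjusted p = 0.10). Vmn1r208 rose by 1.24. Olfr110 fell under the limit with mouse as a block (0.99), without TMM scaling (0.89) and with DESeq2 (0.99). It did so without mouse 1 (0.93) and without mouse 3 (0.95) as well. Without mouse 2 its fold was 1.81, but the call was lost (edgeR adjusted p = 0.051). Olfr113 (1.11) fell under the limit without TMM scaling (0.99) and without mouse 1 (0.51, edgeR adjusted p = 0.27). Olfr114 lost its call without mouse 2 (edgeR adjusted p = 0.0796).

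In the M1 gate 2 members were higher and 7 lower (5.37% and 3.65% of all genes). As in the class gates, a member could pass the filter on low counts through the gate in which it is high, and Olfr1259 is such a case: it had 10.8, 20.8 and 17.4 CPM in M1, 1.10, 14.4 and 1.39 in M3, at most 3.65 in any other gate and 0 in all ET4 libraries. Its call in M1 is therefore given as a description, and no fold against the mean of logs is given. Vmn2r85, the other member called higher, had 7.20, 8.24 and 3.41 CPM in M1 and at most 5.56 in any other gate. Its call may likewise rest on passing the filter through M1 and is given as a description. It was lost without mouse 1 (edgeR adjusted p = 0.0848). Olfr111 had 18, 6.26 and 11.4 CPM (-4.13, SE 0.37), and Olfr110, Olfr112, Olfr113 and Olfr115 were lower with it. Olfr114 had 0 UMIs in the M1 and ET2 gates, so no fold is given for it. Without mouse 2 all 5 of these calls were lost (adjusted p = 1). The ET2 libraries of mice 1 and 3 hold 0 UMIs of these genes, and the cause of the loss was not tested. Vmn1r206 (-1.43) and Vmn1r208 (-1.17) were lower, but their calls were lost without mouse 2 (adjusted p = 0.10 and 0.52) or mouse 3 (0.071 and 0.11). Vmn1r209 was 410.2, 79.8 and 61.7 CPM in the M1 gate, again with mouse 1 apart, and was not called (-1.03, adjusted p = 0.0839).

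In the ET2 gate 1 member was higher and 6 were lower (5.68% and 7.65% of all genes), or 2 and 5 without TMM scaling, where the shares of all genes were 6.66% and 6.65%. Olfr111 had 0, 5.44 and 0 CPM, resting on 8 UMIs (-6.12, SE 0.44, edgeR adjusted p = 1.14e-10). Olfr112, Olfr115, Olfr110 and Olfr113 were lower too, the call of Olfr113 being lost without mouse 3 (-2.21, adjusted p = 0.0805) and that of Olfr110 with gates of at least 3 UMIs (-1.70, adjusted p = 0.16), while that of Vmn1r200, with 0 UMIs in the gate, was lost with mouse as a block (adjusted p = 0.0543). Against this, Vmn1r206 was higher at 126, 165 and 184 CPM (1.12, SE 0.22), a call that fell under the fold limit without mouse 3 (0.88). Vmn1r209 reached about the level of the M2 gate here, with 554, 531 and 517 CPM, but was not called (0.91, adjusted p = 0.0502).

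In the ET4 gate 0 members were higher and 3 lower (8.87% and 4.58% of all genes), or 2 higher and 3 lower without TMM scaling, where the shares of all genes were 12.1% and 3.15%. Without mouse 2 there were 3 higher and 4 lower (9.40% and 4.45% of all genes). With mouse as a block there were 1 higher and 3 lower (8.83% and 4.61%). Vmn1r209 had 183, 139 and 19.9 CPM (-1.66, SE 0.40, edgeR adjusted p = 0.0027), with mouse 3 far below the others, and Vmn1r208 (-1.64) and Vmn1r206 (-1.56) were lower as well. Olfr111, at 278, 181 and 136 CPM, stayed under the fold limit (0.71, adjusted p = 0.0191), and its mean of 198 CPM lies below the 487 CPM of the other gates. Its level is well above the 14, 9.41 and 53.1 CPM of the ET4-like subcluster, and the part of the T1-like, ET1-like and ensheathing glia-like nuclei in the gate was not tested.

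In the M3 gate 2 members were higher and 0 lower (3.91% and 0.441% of all genes). Vmn1r200 had 12.1, 2.61 and 7.65 CPM (edgeR adjusted p = 0.0025, with no fold given since the ET2 gate held 0 UMIs of it), a call lost without mouse 1 (adjusted p = 0.0623) or mouse 3 (adjusted p = 0.126). Olfr1259 had 1.10, 14.4 and 1.39 CPM, where mouse 2 decides the value, and its call, lost without that mouse (adjusted p = 0.49) and with DESeq2 (adjusted p = 0.24), is a description as in the M1 gate. The part of the M1-like nuclei (24.3% of the M3 gate) in this level was not tested.

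**Figure D5:**
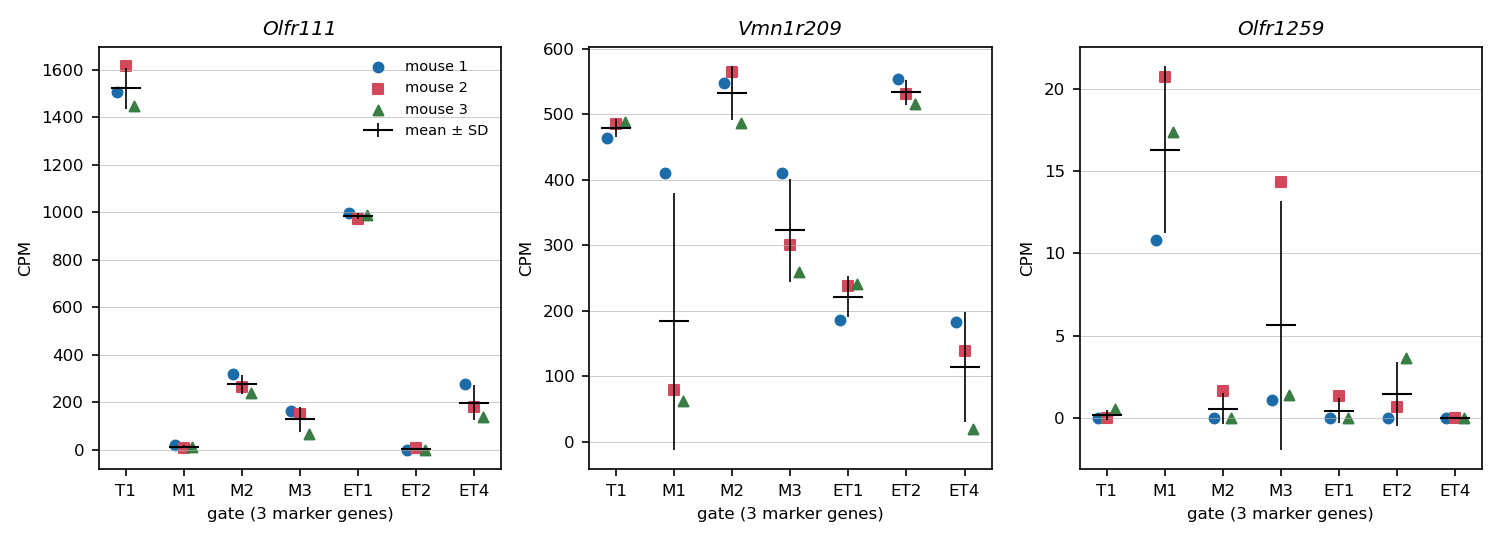
CPM per mouse (points) and mean of Olfr111, Vmn1r209 and Olfr1259 in the 7 marker gates of projection neurons. Olfr111 is highest in the T1 gate (1447 to 1616 CPM) and near 0 in M1 and ET2, Vmn1r209 lies between 463 and 564 CPM in all libraries of T1, M2 and ET2, and Olfr1259 is highest in M1 with a single high M3 library of 14.4 CPM. The M3 gate drew 24.3% of its nuclei from the M1-like subcluster.

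Pairs of gates, chosen after the values had been seen, avoid the mean over gates. Between T1 and ET1 1 member was higher and 0 lower (0.38% and 1.63% of all genes). This was Vmn1r208 (1.14, SE 0.30, edgeR adjusted p = 0.0353), and leaving out any mouse lost it (adjusted p from 0.17 to 0.24), as did DESeq2 (adjusted p = 0.0562). Olfr111 did not pass (0.65, adjusted p = 0.26) although its libraries did not overlap, Olfr115 passed the p but not the fold (0.76, adjusted p = 0.0247), and Vmn1r209 did not pass (1.14, SE 0.44, adjusted p = 0.26). Between M2 and M1 9 members were higher and 1 lower in M2 (3.52% and 3.93% of all genes): Olfr111 rose by 4.85 (SE 0.36), and Olfr1259, the gene called lower, had 0, 1.63 and 0 CPM in M2, which is a description as in the M1 gate. Vmn1r209 (1.86, adjusted p = 0.0131) was lost in this pair without mouse 2 (1.35, adjusted p = 0.33) or mouse 3 (1.38, adjusted p = 0.15), Vmn1r206 (1.58, adjusted p = 0.0019) likewise (0.17 and 0.15), and Vmn1r208 (2.06) without mouse 2 (adjusted p = 0.0751). With DESeq2 the adjusted p in this pair was 0.0977 for Vmn1r209. The call of Olfr1259 was lost without mouse 3 and with DESeq2. Between M2 and ET2 6 members were higher and 0 lower in M2 (9.14% and 7.06% of all genes), the 6 genes of the run, with Olfr111 at 6.56 (SE 0.47), Olfr112 at 5.99 and Olfr115 at 5.64. Vmn1r209 (0.20, SE 0.45, adjusted p = 0.81) and Vmn1r206 (-0.60, adjusted p = 0.14) did not pass. The part of the 12.3% of T1-like nuclei in the M2 gate was not tested in either pair with M2. That of the 33.1% of T1-like nuclei in the ET1 gate was not tested between T1 and ET1.

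Genes with the pattern most like that of a member were sought over 28 subcluster-by-mouse libraries by Pearson correlation of log2(CPM + 1), as a description without p, among 13180 genes. The libraries share mice and depth. For Olfr111 these were Olfr112 (0.988), Olfr115 (0.980), Olfr113 (0.954), Olfr114 (0.936) and Asb2 (0.926). For Olfr110 they were Olfr114 (0.936), Olfr115 (0.926), Pde4d (0.921), Olfr111 (0.916) and Olfr112 (0.900). Vmn1r209 stood nearest to Tmod1 (0.925) and Vmn1r206 (0.921), then to Vmn1r208 (0.860), Cdh22 (0.858) and Tmem164 (0.850). Olfr1259 stood nearest to Dpyd (0.864), Gm30382 (0.845), Slc37a3 (0.830), Ripor2 (0.829) and Tshz3 (0.816), none of them a receptor gene.

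Genes of the receptor pathway were followed in the glutamatergic and GABAergic gates. Beside the 13.5% of all genes called higher and 13.1% called lower in this comparison, of 20 listed signalling genes 14 were tested, 0 were higher and 2 lower, with a median log2 fold change of -0.43 beside 0.02 over all genes. Lower were Pde1c, a phosphodiesterase that breaks down cyclic nucleotides (23.8 against 174 CPM; -2.75), and the exchanger Slc24a4 (-1.46). Gnal (-0.11) and Adcy3 (0.16), which carry the odour signal in sensory neurons, were not called. Of 12 listed genes tied to receptor gene choice 11 were tested, 4 were higher and 1 lower (median 0.20), in the same comparison with the same shares over all genes. The transcription factors Lhx2 (3.05), Emx2 (2.77) and Ebf2 (2.36) were higher in the glutamatergic gate and Ebf4 lower (-2.64). Ebf1 was called higher too (3.72), but its libraries overlapped, with 20.2 to 408 CPM against 4.09 to 30.7 CPM. The demethylase Kdm1a (0.61) did not pass the fold limit.

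A pair of short words was sought on both strands in RefSeq windows of 300 bases around gene starts (GRCm38.p6): TAATTA, the core of many homeodomain sites, and CCCNNGGG, the core of Ebf sites, each its own reverse complement. TAATTA occurs in 5.29% and CCCNNGGG in 13.7% of 32851 windows. Of 173 members with a window, 134 open on the start codon, so that the window need not hold the start of transcription, and of the other 39 members 5 (12.8%) hold TAATTA and 2 (5.13%) hold CCCNNGGG. None of the windows of Olfr110, Olfr111, Olfr113 to Olfr115, the 4 chromosome 13 genes, Olfr1259, Olfr142 or Olfr1271 holds either word, which says only that these letters are not in these windows.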

How the data were processed

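Nuclei of 3 mice were profiled by 10x single-nucleus RNA-seq. The deposited values are raw UMI counts, not normalized, for every gene in every barcode; mm10/GRCm38 was the build and Cell Ranger 3.0.2 the tool named in the headers. Whether intronic reads were counted is not given in the sources used here. The authors' table lists the nuclei kept (1000 or more genes, mitochondrial UMIs up to 5%) with clusters (resolution 0.3) and subclusters (0.5), made by the authors from these same counts. Doublets were not called here.

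UMI counts were summed per mouse and group in Python 3.11.15, and libraries of at least 10 nuclei were expressed as CPM. Groups were named "-like" from at least 3 markers. The members, gene lists, gates and tests were chosen with earlier results of these data known. Named with values were the 20 members with most UMIs, the Olfr110 to Olfr115 run, Olfr110, Olfr111, Olfr1259, Vmn1r209, members called in a gate comparison, and the 5 genes most like each of those 4. Gate sums (22508107 to 156680671 UMIs in the class gates, 277888 to 5035723 in the type gates) were tested with edgeR 4.0.16 (R 4.3.3) by the quasi-likelihood test with filterByExpr, TMM scaling and no mouse term. Each type gate rests on a panel of 3 marker genes, and not every panel is reported here. DESeq2 1.42.0 was an alternative, as were no TMM scaling, no filter, mouse as a block, gates of at least 3 UMIs, nuclei with at least 1500 genes and leaving out each mouse. On simulated data for the class comparison (18421 genes), 50 of 50 genes changed 4-fold were called, with 0 false calls. Of genes changed 2-fold, which lie at the fold limit itself, 23 of 50 were called. Of those changed 1.5-fold, which lie below the limit, 0 of 50 were called. The simulation had a single fixed dispersion and no mouse effect, and changed only genes above a minimum expected count. It therefore does not give the error rate of the tests on the measured data.

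Gates share mice: over 12959 genes the deviations of the glutamatergic and GABAergic libraries correlated at 0.374, 0.463 and 0.575 within mouse 1, 2 and 3 and at -0.426 to 0.0271 between mice, and both libraries come from the same animal. Coding sequences and shared 31-base words were taken from GENCODE vM21 transcripts and windows at gene starts from RefSeq (GRCm38.p6), matched by symbol.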

Additional observations from a re-analysis of the deposited data

Results flagged for a closer look

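The matrices also hold barcodes outside the authors' table of nuclei, which enter no comparison above: 1873, 8724 and 2123 in mice 1, 2 and 3, with medians of 785, 732 and 808 UMIs. Transcripts of the receptor blocks were found there. The Olfr110 to Olfr115 run stood at 455 CPM in mouse 1, 84.4 CPM in mouse 2 and 487 CPM in mouse 3, on 904, 596 and 1083 UMIs, beside 555, 358 and 595 CPM in the listed nuclei of the same mice. The 4 chromosome 13 genes stood at 213, 36.8 and 223 CPM, beside 217, 146 and 233 CPM in the listed nuclei. In mouse 2 both blocks were thus far lower outside the table than within it, and in mice 1 and 3 nearly as high. The other 190 members were at 142, 140.4 and 139 CPM outside and 141, 134 and 157 CPM inside. Whether these barcodes are shallow nuclei or hold free RNA was not tested.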

How the results depend on the processing

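With a minimum of 100 UMIs the members number 83 instead of 200. Without the filter on low counts 51 members were called in the class gates (42 higher, 9 lower) instead of 28, 8 in the ET4 gate (4 higher, 4 lower) instead of 3 and 2 between T1 and ET1 instead of 1. These are counts out of 200 members tested in the class gates instead of 83, and out of 199 in the others instead of 18. The shares of all genes called higher and lower were then 10.8% and 10.1% in the class gates, 6.03% and 2.87% in ET4 and 0.332% and 1.35% between T1 and ET1. With gates of at least 3 UMIs the calls were 6 in ET4 (of 26 tested, 10.4% and 8.02% of all genes) and 3 between T1 and ET1 (0.535% and 1.63%), without TMM scaling 5 in ET4 (12.1% and 3.15%), and with DESeq2 1 in M3 (of 2) and 0 between T1 and ET1 (9 members at an unadjusted p under 0.05 in edgeR). Gates of at least 3 UMIs also drop the M1 library of mouse 1, which then holds 9 nuclei. Leaving out that library alone gave 3 calls in ET4 (8.76% and 4.81% of all genes) and 2 between T1 and ET1 (0.451% and 1.76%). Leaving out single mice gave 24 to 36 calls in the class gates, 9 to 10 in T1, 2 to 12 in M1, 5 to 8 in M2, 1 to 2 in M3, 6 to 6 in ET1, 4 to 8 in ET2, 3 to 7 in ET4, 0 to 2 between T1 and ET1, 7 to 11 between M2 and M1 and 6 to 6 between M2 and ET2; these ranges include leaving out the M1 library of mouse 1 (12 nuclei), which, like the pairs of gates, was chosen after seeing the data. The low counts in M1 and M2 are those without mouse 2, that in ET2 the one without mouse 3, and the high one in ET4 that without mouse 2.

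With mouse as a replicate block, which pairs the libraries of an animal, the calls were 29 in the class gates, 9 in T1, 10 in M1, 7 in M2, 2 in M3, 6 in ET1, 6 in ET2 and 4 in ET4, and in the pairs 1, 10 and 6. The shares of all genes called higher and lower with the block were 13.5% and 13.3% in the class gates and 8.83% and 4.61% in ET4. The block ended the calls of Olfr1385, Vmn1r200 in ET2 and Olfr110 in M2 and no other among the 72 gene results of the planned comparisons. Of 691 alternative values of these results 634 kept direction and call, 57 kept the direction only and 0 turned; 44 results were called under every alternative tried. In the pairs 158 of 170 values were kept and 0 turned. Without TMM scaling the median log2 fold change of all genes shifted from 0.02 to 0.19 in ET4, from -0.01 to -0.13 in M1, from 0.02 to -0.10 in M2, from -0.02 to 0.10 in ET2 and from 0.03 to -0.17 between M2 and ET2. In the simulated class comparison 23 of 50 genes changed 2-fold, a change at the fold limit itself, were called. The type gates were not simulated, and those of under 30 nuclei hold few UMIs of the scarce members.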
